A study of Rattus norvegicus with 8 samples.

Results

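The genes described here encode the oxidative phosphorylation system of the rat. They were taken as every array feature with a single platform gene symbol that starts with Nduf, Uqcr, Cox4, Cox5, Cox6, Cox7, Cox8 or Atp5, or that equals Sdha, Sdhb, Sdhc, Sdhd, Cyc1 or Cycs. This rule uses names and no measured value. It found 144 features of 88 genes, out of 14871 named genes on the array. Of these genes 32 belong to complex I, 4 to complex II, 9 to complex III, 1 is cytochrome c, 15 belong to complex IV and 17 to complex V. The remaining 10 carry a prefix of the rule but are no subunit, namely 7 complex I assembly factors with names that start with Ndufaf, the ATP synthase inhibitor Atp5if1, the supercomplex factor Cox7a2l and Ndufs6-ps1, a pseudogene by its symbol.

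Complex I and complex II pass electrons from NADH and succinate to ubiquinone, complex III passes them to the small carrier cytochrome c, and complex IV hands them to oxygen. Complexes I, III and IV pump protons across the inner mitochondrial membrane, and complex V, the ATP synthase, lets them flow back to make ATP. Neurons draw most of their ATP from this chain, and the genes measured here are nuclear genes.

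The animals were male Wistar rats of 13 weeks with an electrode in the lateral hypothalamus of the right hemisphere, and all had 7 days of recovery from surgery. In the 4 ICSS pools the rats had learned to stimulate themselves in sessions of 20 min on 2 days and then took 2500 trains of 0.3 s at 50 Hz (intracranial self-stimulation), while the rats of the 4 Sham pools spent the same sessions and a last one of 40 min in the box without current. Each pool joined the hippocampus on the electrode's side from 3 rats and is labelled a biological replicate, so rats within a pool cannot be told apart. The sources used here do not give the time from the last session to tissue collection. On each 2-colour array the RNA of 1 pool carried Cy5 and that of a common reference Cy3. The channel labels describe this reference as hippocampus, thalamus and cortex of the other hemisphere from 3 ICSS and 3 Sham rats, whereas the design text calls it hippocampal tissue of the electrode's side.

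All values are the log2 ratios of pool over reference that the authors deposited, averaged over the features of a gene. A ratio of 0 means equal signal in pool and reference. The level of a gene is the mean of its ICSS and Sham group means, and the difference is the ICSS mean minus the Sham mean. In a check of the tissue, 8 of 11 measured hippocampal neuron markers stood above the reference (limma adjusted p under 0.05), with Neurod6 at 1.73 and C1ql2 at 2.12, and 1 below it. Of 10 thalamic markers 9 stood below the reference, with Slc17a6 at -2.55 and Prkcd at -2.53. Sham pool 4 stood apart from the other pools, with correlations of 0.59 to 0.78 over all features against a highest value of 0.87 between any pair of pools. In that pool the mean ratio of 9 oligodendrocyte markers was -0.75 and that of 8 choroid plexus and ependyma markers -1.29, against 0.85 for the latter list in Sham pool 1. The pools are whole tissue, so fewer cells of a type and less RNA per cell cannot be told apart.

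The choice by name did not use promoter sequence, so it was described separately. RefSeq promoters (build GRCr8, 250 bases before to 50 after the start) were found for 76 of the 88 genes. The others are Atp5pd, Cox4i2, Cox6a1, Cox6c, Cyc1, Ndufa10l1, Ndufa8, Ndufaf6, Ndufb9, Ndufs6-ps1, Uqcr11 and Uqcrb. Promoters of 5 genes whose values recur in the comparisons are given 5′ to 3′ on the strand of the gene, with capitals marking matches on either strand to 3 motifs of factors known to bind promoters of respiratory chain genes: NRF1 (CGCANGCG), ETS factors such as GABP (CCGGAAG) and YY1 (AAGATGGCG). Overlapping matches of these motifs run together in capitals.
Ndufs1 promoter, chr9:72073556-72073855, minus strand: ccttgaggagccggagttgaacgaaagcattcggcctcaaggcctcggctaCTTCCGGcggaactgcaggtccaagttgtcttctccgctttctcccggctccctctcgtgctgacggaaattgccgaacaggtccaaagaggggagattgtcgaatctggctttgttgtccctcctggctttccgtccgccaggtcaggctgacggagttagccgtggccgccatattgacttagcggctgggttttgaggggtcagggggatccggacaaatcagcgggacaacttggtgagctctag
Atp5f1a promoter, chr18:73567287-73567586, plus strand: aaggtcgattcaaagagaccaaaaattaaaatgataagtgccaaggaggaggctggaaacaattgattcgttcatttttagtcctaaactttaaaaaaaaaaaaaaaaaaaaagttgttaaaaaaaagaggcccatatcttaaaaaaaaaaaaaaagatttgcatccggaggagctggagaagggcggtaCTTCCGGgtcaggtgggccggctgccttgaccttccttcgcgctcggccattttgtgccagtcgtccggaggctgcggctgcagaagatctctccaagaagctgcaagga
Atp5me promoter, chr14:1464610-1464909, plus strand: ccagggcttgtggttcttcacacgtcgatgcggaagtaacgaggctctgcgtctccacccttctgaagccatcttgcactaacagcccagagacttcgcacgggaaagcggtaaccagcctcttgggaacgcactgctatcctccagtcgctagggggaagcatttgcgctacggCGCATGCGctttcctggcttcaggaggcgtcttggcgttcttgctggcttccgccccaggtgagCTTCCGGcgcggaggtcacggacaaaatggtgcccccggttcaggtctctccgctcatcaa
Uqcrc1 promoter, chr8:118467973-118468272, plus strand: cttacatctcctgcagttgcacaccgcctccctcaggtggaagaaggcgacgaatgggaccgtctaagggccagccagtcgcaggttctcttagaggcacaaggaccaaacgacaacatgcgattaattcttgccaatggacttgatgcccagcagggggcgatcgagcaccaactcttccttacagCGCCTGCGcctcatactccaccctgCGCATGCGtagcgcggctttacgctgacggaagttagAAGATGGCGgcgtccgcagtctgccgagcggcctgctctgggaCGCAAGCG
Ndufaf1 promoter, chr3:127103971-127104270, minus strand: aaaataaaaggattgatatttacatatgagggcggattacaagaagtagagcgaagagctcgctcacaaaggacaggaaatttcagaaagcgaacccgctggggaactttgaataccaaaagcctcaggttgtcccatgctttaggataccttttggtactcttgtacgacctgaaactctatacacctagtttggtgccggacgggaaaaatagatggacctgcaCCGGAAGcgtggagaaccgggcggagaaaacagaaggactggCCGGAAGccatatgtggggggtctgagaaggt

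The NRF1 letters were present in 28 of the 76 promoters (36.8%), against 9.89% of 21851 promoters of protein-coding genes of the same length. The ETS letters were present in 21 (27.6% against 10.7%) and the YY1 letters in 9 (11.8% against 2.07%). The TATA box TATAAA was found in 7 (9.21% against 13.0%) and CCAAT in 26 (34.2% against 38.0%), also on both strands. The median GC content was 56.7% in the 76 promoters and 55.0% in all coding ones. Of the promoters shown, that of Uqcrc1, a core protein of complex III, held the NRF1 letters 3 times and the YY1 letters once, and that of Atp5me, a small membrane subunit of ATP synthase, was among the 7 that held both NRF1 and ETS letters. Those of the complex I core subunit Ndufs1, of the ATP synthase alpha subunit Atp5f1a and of the assembly factor Ndufaf1 held ETS letters alone. The median ICSS minus Sham difference was 0.039 in the 28 genes with NRF1 letters and 0.028 in the 48 without, 0.035 both with and without ETS letters, and 0.046 in the 9 with YY1 letters against 0.035 in the 67 without. A match describes the letters in this window and not a bound site.

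Stimulated and Sham hippocampus were compared first to ask whether the nuclear genes of the chain differed after self-stimulation. None of the 88 genes passed the test (limma, adjusted p under 0.05 over 34738 units, which are the named genes and the features without a name). The background was low as well, since 16 of the 34738 units passed (0.0461%), 9 of them higher after ICSS (0.0259%) and 7 lower (0.0202%). At an unadjusted p under 0.05 there were 10 of the 88 genes, which is 11.4% of them against 12.6% of all units. Of these 6 were higher and 4 lower after ICSS, where 6.61% and 6.03% of all units were. The 10 genes became 6 without Sham pool 4 and 5 without ICSS pool 2. The shares of all units in those fits are not given here, so the 6 and 5 genes have no background beside them. The values of ICSS and Sham pools did not overlap in 9 genes, which is 10.2% against 7.80% of all units. Of these 6 were higher and 3 lower, where 4.13% and 3.66% of all units were. Both shares lie near the background. The smallest adjusted p was 0.175, for the complex I assembly factor Ndufaf1.

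**Figure D1:**
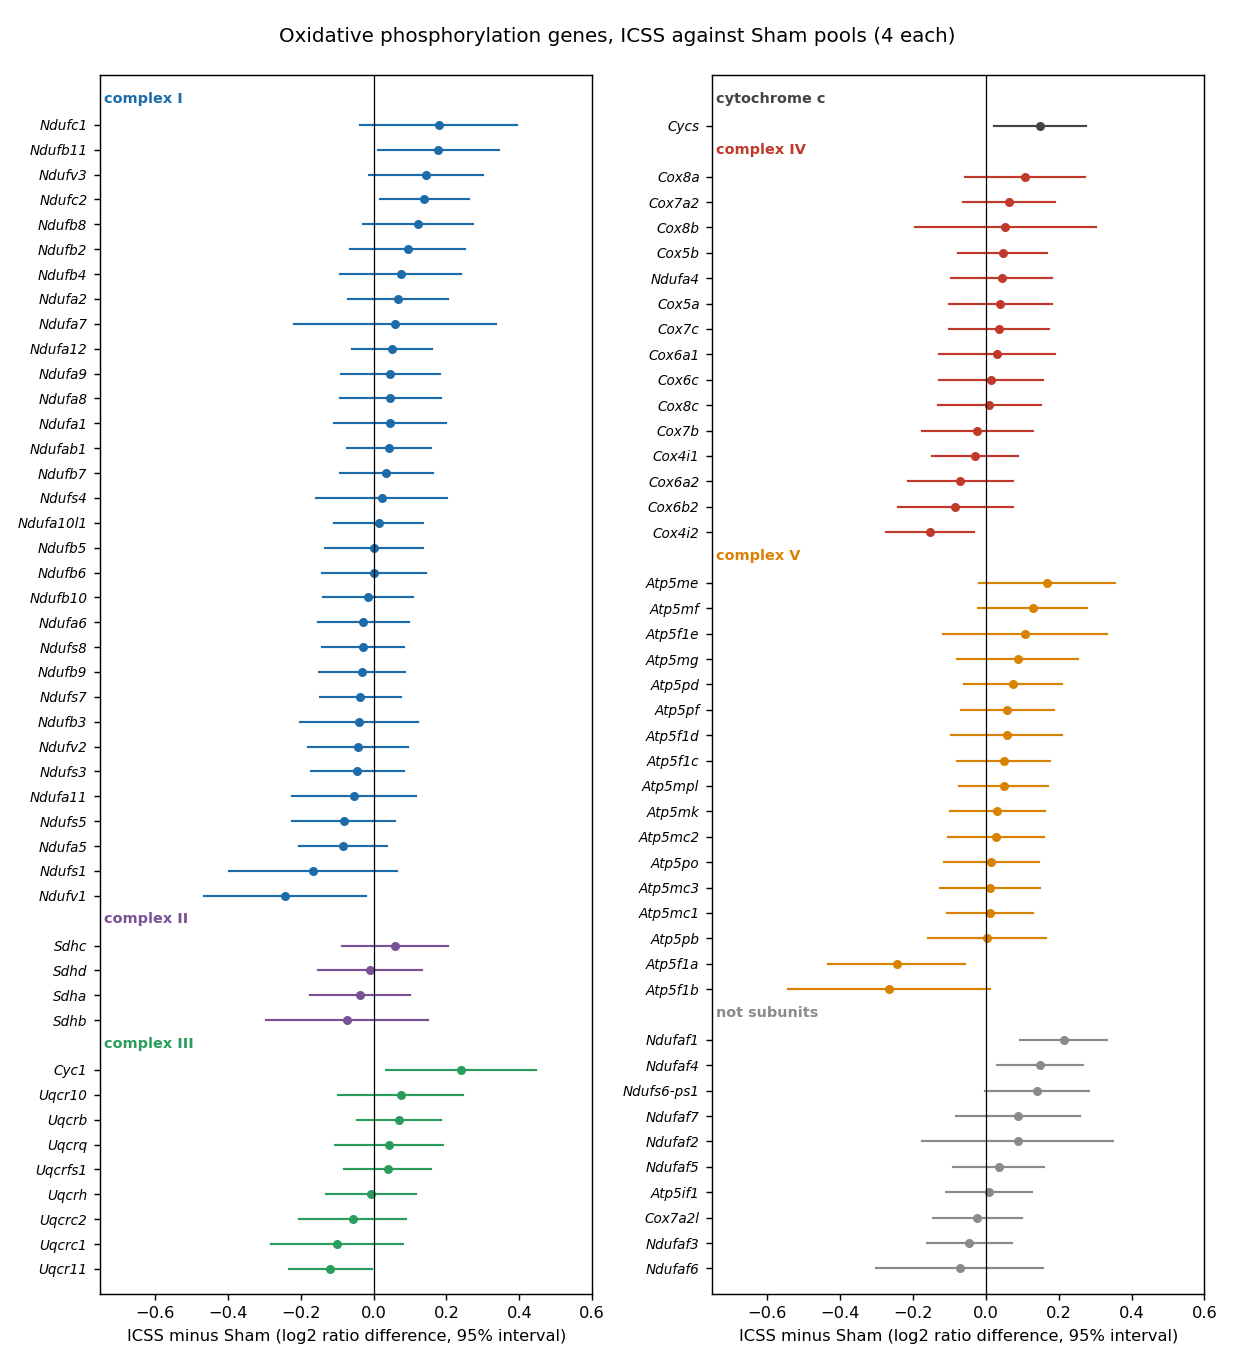
Difference in log2 ratio, ICSS minus Sham (horizontal axis), of each of the 88 genes by complex. Points are the limma differences between 4 pools a group and bars their 95% confidence intervals, and all bars except that of Atp5f1b stay within 0.5 of 0.

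The differences were small. Their median was 0.034 on the log2 scale over the 88 genes and 0.0078 over all units, and the median absolute difference was 0.052 against 0.076. For 87 of the 88 genes the 95% confidence interval of the difference lay within 0.5 log2 units of 0 (1.41-fold), as it did for 91.4% of all units, and for 60 genes within 0.25 (1.19-fold). The exception at 0.5 was Atp5f1b, the beta subunit of ATP synthase. The plot of differences by complex shows this spread, in which 58 genes (65.9%) lay above 0 and 30 below, while 52.8% of all units lay above 0. Centring each array on its median moved this to 51 and 37, and leaving out 1 array at a time to between 52 and 61 above 0. The share of all units above 0 in these settings is not given here, and the 52.8% holds for the deposited values. The median of the 88 genes was 0.021 after centring, 0.020 without ICSS pool 1 and 0.021 without Sham pool 4.

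In complex I all 6 measured core subunits, which carry the redox centres of the arm that reaches into the matrix, had negative differences, with a median of -0.043. None passed the test, and 1 (16.7%, against 12.6% of all units) had an unadjusted p under 0.05. That one was Ndufv1, which binds FMN and takes up the electrons of NADH: the ratios were -0.28, -0.47, -0.21 and -0.041 in ICSS pools 1 to 4 and -0.14, -0.11, 0.089 and 0.13 in Sham pools 1 to 4. The ICSS pools lay lowest in pool 2 and the 2 groups overlapped, because Sham pools 1 and 2 fell within the range of the ICSS pools. The difference was -0.24 (SE 0.10, limma adjusted p = 0.362). For Ndufs1, the largest core subunit, with iron-sulphur clusters, the ratios were 0.011, -0.16, -0.35 and -0.089 in ICSS pools 1 to 4 and -0.15, -0.11, 0.10 and 0.23 in Sham pools 1 to 4. Sham pools 1 and 2 again lay among the ICSS pools, and the difference was -0.17 (SE 0.10, limma adjusted p = 0.538). Leaving out 1 array gave Ndufs1 values from -0.22 to -0.095, the smallest in size without Sham pool 4 and, at -0.097, without ICSS pool 3. The other 4 core subunits, Ndufs3, Ndufs7, Ndufs8 and Ndufv2, differed by -0.044 to -0.030. Their features did not all share that sign, since the 2 of Ndufs3 differed by -0.089 and 0.000056, the 2 of Ndufs7 by -0.081 and 0.0084, and the 3 of Ndufs8 by -0.12 to 0.061.

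The 25 accessory subunits of complex I, which stabilise and regulate the complex, had a median difference of 0.045, with 18 above 0 as deposited and 16 after centring. Again none passed, and 2 (8%, against 12.6% of all units) had an unadjusted p under 0.05. One was Ndufc2 of the membrane arm: the ratios were 0.20, 0.21, 0.13 and 0.11 in ICSS pools 1 to 4 and 0.094, 0.012, 0.023 and -0.027 in Sham pools 1 to 4. All 4 ICSS pools lay above all 4 Sham pools, and the 3 features of the gene each had a positive difference, from 0.093 to 0.17. The gene's difference was 0.14 (SE 0.054, limma adjusted p = 0.338). The other was Ndufb11, an X-linked membrane-arm subunit, with ICSS ratios of 0.12, 0.29, 0.40 and 0.38 and Sham ratios of 0.092, 0.092, 0.23 and 0.074. Sham pool 3 lay far above the other Sham pools, inside the ICSS range. Its difference was 0.18 (SE 0.074, limma adjusted p = 0.368). Ndufc1, the other small subunit with an Ndufc name, differed by 0.18 (SE 0.096, limma adjusted p = 0.476), with ICSS at 0.20 ± 0.15 and Sham at 0.021 ± 0.15 (SD, n = 4 each). At the other end, the largest negative differences among accessory subunits were those of Ndufa5 (-0.083) and Ndufs5 (-0.082). Ndufa10l1, a paralog of an accessory subunit by its name, differed by 0.014.

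Complex II, which also serves the TCA cycle, showed differences between -0.073 and 0.058. The flavoprotein Sdha had a difference of -0.038 (SE 0.061, limma adjusted p = 0.831), and its 2 features differed in sign, at -0.10 and 0.027. The ratio of the iron-sulphur subunit Sdhb was -0.22 ± 0.12 after ICSS and -0.14 ± 0.19 in Sham rats (SD, n = 4 pools each) and differed by -0.073 (SE 0.10, limma adjusted p = 0.791). The membrane anchors Sdhc and Sdhd differed by 0.058 and -0.011.

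In complex III the haem-bearing cytochrome c1, Cyc1, and the small subunit Uqcr11 had unadjusted p-values under 0.05, in opposite directions. For Cyc1, the ratios were 0.00027, -0.053, 0.032 and 0.17 in ICSS pools 1 to 4 and -0.13, -0.45, -0.031 and -0.20 in Sham pools 1 to 4. Sham pool 2 was the lowest of all 8 pools, and the groups overlapped at Sham pool 3. The difference was 0.24 (SE 0.092, limma adjusted p = 0.329), and without Sham pool 2 it was 0.16. For Uqcr11, the ratios were -0.14, -0.22, -0.21 and -0.21 in ICSS pools 1 to 4 and -0.045, -0.055, -0.072 and -0.14 in Sham pools 1 to 4. All 4 ICSS pools lay below all Sham pools, by a narrow margin against Sham pool 4, with a difference of -0.12 (SE 0.051, limma adjusted p = 0.379). The core protein Uqcrc1 had ICSS ratios of -0.17, -0.17, -0.24 and -0.0058 and Sham ratios of -0.20, -0.11, 0.087 and 0.049, with the highest values in Sham pools 3 and 4, and differed by -0.10 (SE 0.081, limma adjusted p = 0.637). It was -0.056 without Sham pool 3 and -0.15 without Sham pool 1. The Rieske iron-sulphur protein Uqcrfs1 differed by 0.039 (SE 0.054, limma adjusted p = 0.794), its 3 features ranging from -0.062 to 0.19. The other 5 measured subunits lay between -0.058 and 0.075.

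Cytochrome c, Cycs, is the soluble carrier between complexes III and IV and also acts in apoptosis. Here the ratios were 0.094, 0.22, 0.13 and 0.13 in ICSS pools 1 to 4 and -0.095, -0.0084, 0.031 and 0.042 in Sham pools 1 to 4. Every ICSS pool lay above every Sham pool, and each of its 4 features had a positive difference, from 0.077 to 0.23. The difference was 0.15 (SE 0.057, limma adjusted p = 0.325), a 1.11-fold higher mean ratio that did not pass the test. Short genes such as Cycs and the c-ring genes of ATP synthase have processed copies in the genome, so their features may not read a single gene.

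Complex IV held 15 genes, including Ndufa4, which was named as a complex I subunit and is now known in complex IV. Its 10 common subunits showed differences from -0.030 to 0.11, and none had an unadjusted p under 0.05. The highest, Cox8a, was 0.052 without ICSS pool 1. Cox4i1, the common form of the regulatory subunit 4, differed by -0.030 (SE 0.053, limma adjusted p = 0.843), Cox5a by 0.040 (SE 0.063, limma adjusted p = 0.826) and Cox6a1 by 0.031 (SE 0.071, limma adjusted p = 0.884). The isoform Cox4i2, known from lung and from pericytes and for a role in oxygen sensing, was the exception among the 5 measured isoforms of other tissues or cell types: the ratios were -0.32, -0.30, -0.40 and -0.43 in ICSS pools 1 to 4 and -0.21, -0.18, -0.21 and -0.24 in Sham pools 1 to 4. The ICSS pools all lay below the Sham pools, within a narrow range in each group, and the difference was -0.15 (SE 0.054, limma adjusted p = 0.298). Among 11 endothelial and pericyte markers none passed. Of these 1 (9.09%, against 12.6% of all units) had an unadjusted p under 0.05 (Pecam1, 0.18). The differences had both signs, 5 above 0 and 6 below. Pdgfrb and Notch3 differed by 0.14 and 0.15 and Kcnj8 by 0.068, while Vtn differed by -0.15, Rgs5 by -0.068 and Abcc9 by -0.065. Their part in the Cox4i2 value was not tested. The muscle isoforms Cox6a2 and Cox8b and the testis isoforms Cox6b2 and Cox8c differed by -0.070, 0.054, -0.083 and 0.010. The 3 features of Cox6a2 disagreed in sign, at -0.14, -0.19 and 0.12. Those of Cox8b ranged from 0.000045 to 0.14. On the Cox8b feature with the smallest difference, Sham pool 1 had a ratio of 0.60, against -0.75 to -0.53 in the other Sham pools. Cox7a1 and Cox7b2 were not analysed here, nor was Ndufa4l2.

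**Figure D2:**
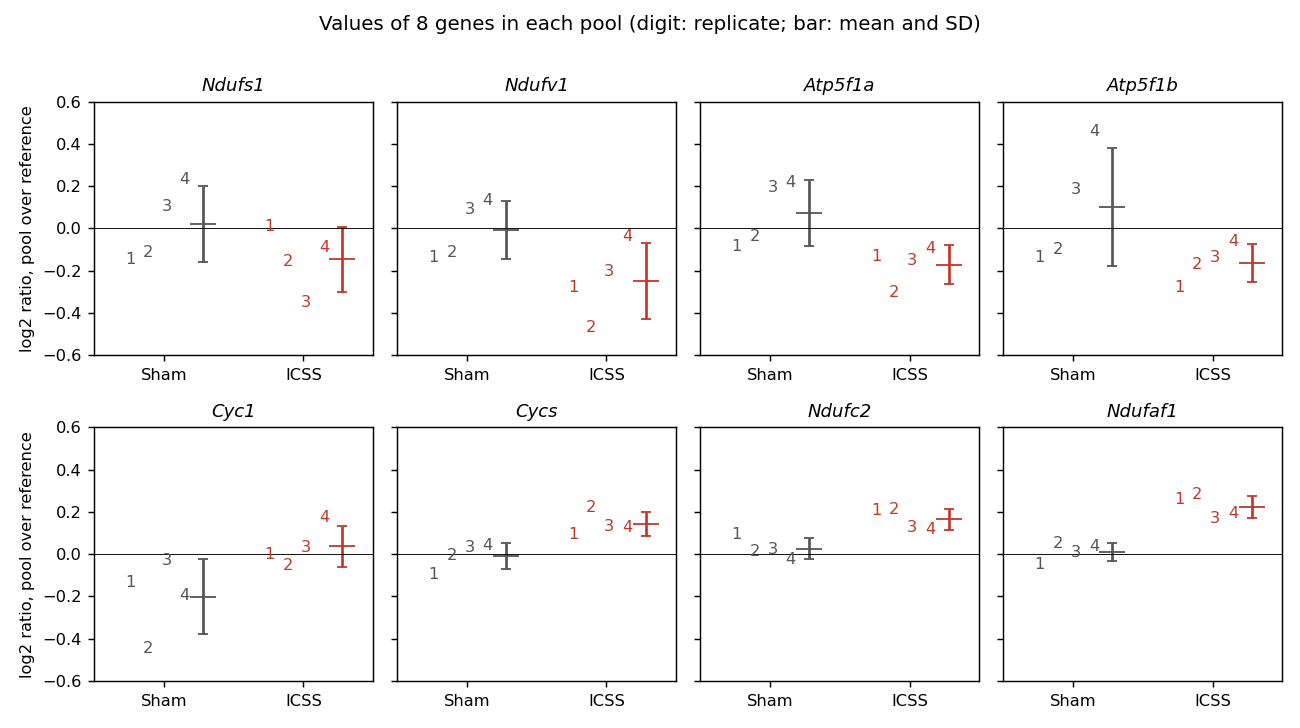
Log2 ratio of pool over reference (vertical axis) of 8 genes in each Sham and ICSS pool. Each digit is the pool with that replicate number and the bar gives the group's mean and SD (n = 4). Ndufs1, Ndufv1, Atp5f1a and Atp5f1b are highest in Sham pools 3 and 4, while for Cycs, Ndufc2 and Ndufaf1 all ICSS pools lie above all Sham pools.

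In complex V the alpha and beta subunits, which form the catalytic head of ATP synthase, had the most negative differences of all 88 genes. For Atp5f1a, the ratios were -0.13, -0.30, -0.15 and -0.094 in ICSS pools 1 to 4 and -0.084, -0.037, 0.19 and 0.22 in Sham pools 1 to 4. All ICSS pools lay below all Sham pools, by a narrow margin against Sham pool 1, and the difference was -0.24 (SE 0.084, limma adjusted p = 0.292). For Atp5f1b, the ratios were -0.28, -0.17, -0.14 and -0.061 in ICSS pools 1 to 4 and -0.14, -0.099, 0.19 and 0.46 in Sham pools 1 to 4. Sham pool 4 was far above the rest and Sham pools 1 and 2 lay among the ICSS pools. The difference was -0.26 (SE 0.12, limma adjusted p = 0.414), and without Sham pool 4 it was -0.15. The other 15 subunits all had positive differences as deposited, from 0.0025 to 0.17, and the median over the 17 was 0.049. After centring 12 of the 17 were above 0, and leaving out 1 array at a time gave between 12 and 15. The median was 0.027 without ICSS pool 1 and 0.026 without ICSS pool 4. In the head, the gamma, delta and epsilon subunits Atp5f1c, Atp5f1d and Atp5f1e differed by 0.049, 0.057 and 0.11, and Atp5f1e by 0.023 without Sham pool 4, 0.068 without ICSS pool 4 and 0.19 without Sham pool 1. The 4 genes of the peripheral stalk, Atp5pb, Atp5po, Atp5pf and Atp5pd, lay between 0.0025 and 0.075. The 3 genes of the proton-carrying c ring lay between 0.011 and 0.029. Of the small membrane subunits, Atp5me had ICSS ratios of -0.40, -0.64, -0.60 and -0.76 and Sham ratios of -0.70, -0.69, -0.76 and -0.90, and differed by 0.17 (SE 0.084, limma adjusted p = 0.442). Without ICSS pool 1, the highest, the Atp5me difference was 0.10. Atp5mf was the 1 other complex V gene whose groups did not overlap, with ICSS ratios of 0.40, 0.20, 0.22 and 0.17 and Sham ratios of 0.16, 0.13, 0.033 and 0.16, and a difference of 0.13 (SE 0.066, limma adjusted p = 0.459).

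Among the genes that share a prefix but are no subunit, the complex I assembly factor Ndufaf1 had the smallest p of all 88 genes. Here the ratios were 0.26, 0.28, 0.17 and 0.19 in ICSS pools 1 to 4 and -0.049, 0.051, 0.0074 and 0.035 in Sham pools 1 to 4. All ICSS pools lay above all Sham pools, and the difference was 0.21 (SE 0.054, limma adjusted p = 0.175), or 1.16-fold. Leaving out 1 array at a time kept it between 0.19 and 0.23, with adjusted p-values of 0.215 or more. For the assembly factor Ndufaf4, the ratios were 0.25, 0.23, 0.23 and 0.25 in ICSS pools 1 to 4 and 0.12, 0.12, 0.13 and -0.0018 in Sham pools 1 to 4. The ICSS pools lay within a narrow range above all Sham pools, Sham pool 4 was the lowest, and the difference was 0.15 (SE 0.053, limma adjusted p = 0.303). Its 3 features ranged from 0.080 to 0.20. Ndufaf3, which acts in complex I assembly together with Ndufaf4, differed by -0.045. Ndufs6-ps1 also had groups that did not overlap and differed by 0.14 (SE 0.064, limma adjusted p = 0.402). Atp5if1, which inhibits ATP synthase when it runs backwards, differed by 0.0087 (limma adjusted p = 0.96).

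Of the 30 genes with negative differences, some shared an order of pools, and they were picked after their values were seen. Ndufs1, Ndufv1, Atp5f1a, Atp5f1b and Uqcrc1 were each highest in Sham pools 3 and 4, while Sham pools 1 and 2 lay near or among the ICSS pools. Other genes with negative differences did not share it. Among the Sham pools, Uqcr11 and Cox4i2 were lowest in pool 4. Of the other core subunits of complex I, Ndufs3 and Ndufs8 were highest in Sham pools 3 and 4 among the Sham pools. Ndufv2 was highest there in pools 2 and 3, and Ndufs7 in pool 1. The mean ratio of the 6 core subunits of complex I was -0.059, -0.035, 0.065 and 0.067 in Sham pools 1 to 4 and -0.058, -0.14, -0.11 and -0.033 in ICSS pools 1 to 4. The 17 glycolysis enzymes followed that order, with means of -0.063, -0.039, 0.12 and 0.19 in Sham pools and -0.085, -0.11, -0.11 and 0.036 in ICSS pools. The 66 cytosolic ribosomal protein genes had their lowest means in the same Sham pools, at -0.28 and -0.37 in pools 3 and 4 against -0.13 and -0.19 in pools 1 and 2. Their ICSS means were -0.22, -0.23, -0.15 and -0.19. The part of these differences between Sham pools in the ICSS minus Sham values was not tested.

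**Figure D3:**
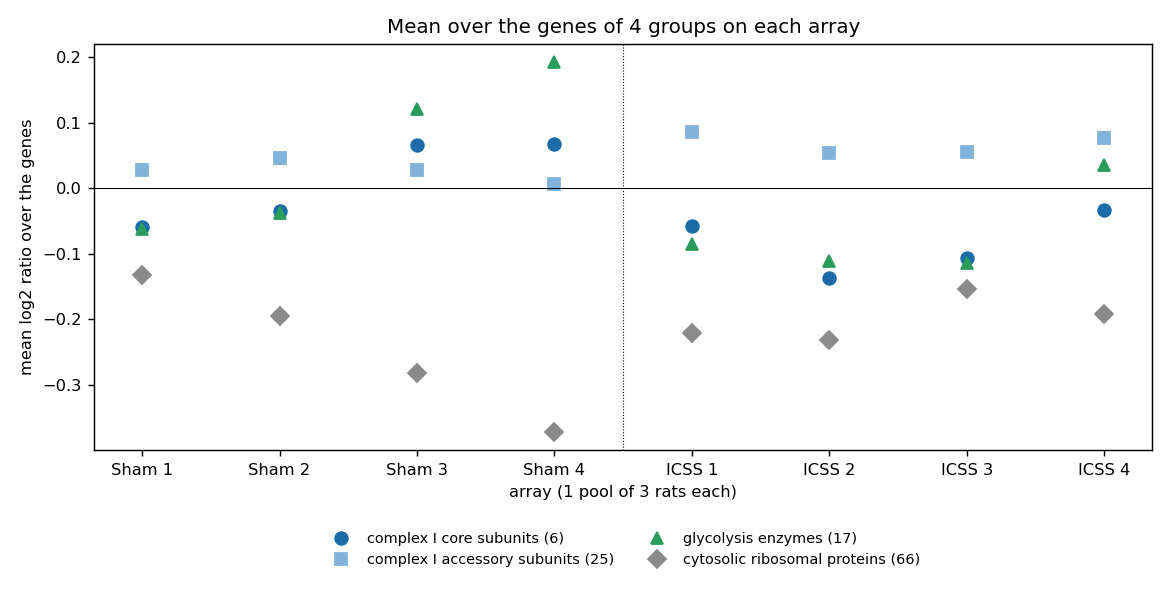
Mean log2 ratio (vertical axis) over the genes of 4 groups on each of the 8 arrays, with 1 symbol per gene group. Core subunits of complex I and glycolysis enzymes are higher in Sham pools 3 and 4 than in the other Sham pools, cytosolic ribosomal proteins are lower there, and accessory subunits of complex I stay above 0 on every array.

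Related gene lists were set beside the chain. No gene of any of them passed the test, against the background of 0.0461% of all units. At an unadjusted p under 0.05 the background was 12.6% of all units, 6.61% higher and 6.03% lower. The shares of the lists at that threshold ranged from 0% to 16.7%. Of 11 measured TCA cycle enzymes, which supply NADH and succinate, none had an unadjusted p under 0.05, and the median difference was -0.014, with malate dehydrogenase Mdh2 at -0.11 and citrate synthase Cs at 0.064. Among 26 further assembly factors of the chain, 2 had an unadjusted p under 0.05, both lower, with Cox20 at -0.18 and Timmdc1 at -0.15, and the median was 0.032. The 18 regulators of mitochondrial biogenesis had a median of 0.0046, 2 with an unadjusted p under 0.05 above 0 and 1 below. They included Gabpa, an ETS factor and a subunit of GABP, at 0.21 (limma adjusted p = 0.328), and the mitochondrial RNA polymerase Polrmt at -0.18. The 10 carriers and kinases of nucleotide and phosphate exchange had a median of -0.017, with the ADP/ATP carrier Slc25a4 at -0.054 and the adenylate kinase Ak3 at 0.062. The 70 mitochondrial ribosomal proteins had a median of 0.017, 3 with an unadjusted p under 0.05 above 0 and 2 below, among them Mrps5 at -0.18 (limma adjusted p = 0.208) and Mrps10 at -0.67. Of the 17 glycolysis enzymes 16 had a negative difference, with a median of -0.11 and -0.065 without Sham pool 4. The pyruvate kinase Pkm differed by -0.30 (SE 0.093, limma adjusted p = 0.247) and the aldolase Aldoa by -0.38 (SE 0.12, limma adjusted p = 0.264). Of the 66 cytosolic ribosomal proteins 48 had a positive difference, with a median of 0.050 that was 0.010 without Sham pool 4, while Rpl3 differed by -0.27 (limma adjusted p = 0.162) and Rpl23 by 0.17.

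The second comparison set the level of each gene in hippocampal pools against the reference. All arrays carry the pool in Cy5 and the reference in Cy3, so a dye effect and a tissue difference cannot be told apart for a single gene, and the reference is 1 RNA pool whose own spread was not measured. Of the 88 genes, 23 (26.1%) stood above the reference and 21 (23.9%) below it (limma, adjusted p under 0.05), against a background of 17.5% and 24.8% of all units and of 19.4% and 25.3% of named genes. The median level was -0.020, close to -0.024 for all units. On all 8 arrays 19 genes lay above 0 and 21 below. The share of all units that did so is not given here, so these counts have no background beside them. Levels beyond 0.5 in size were found in 4 genes (4.55%, against 7.22% of all units), and all 4 were below the reference.

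**Figure D4:**
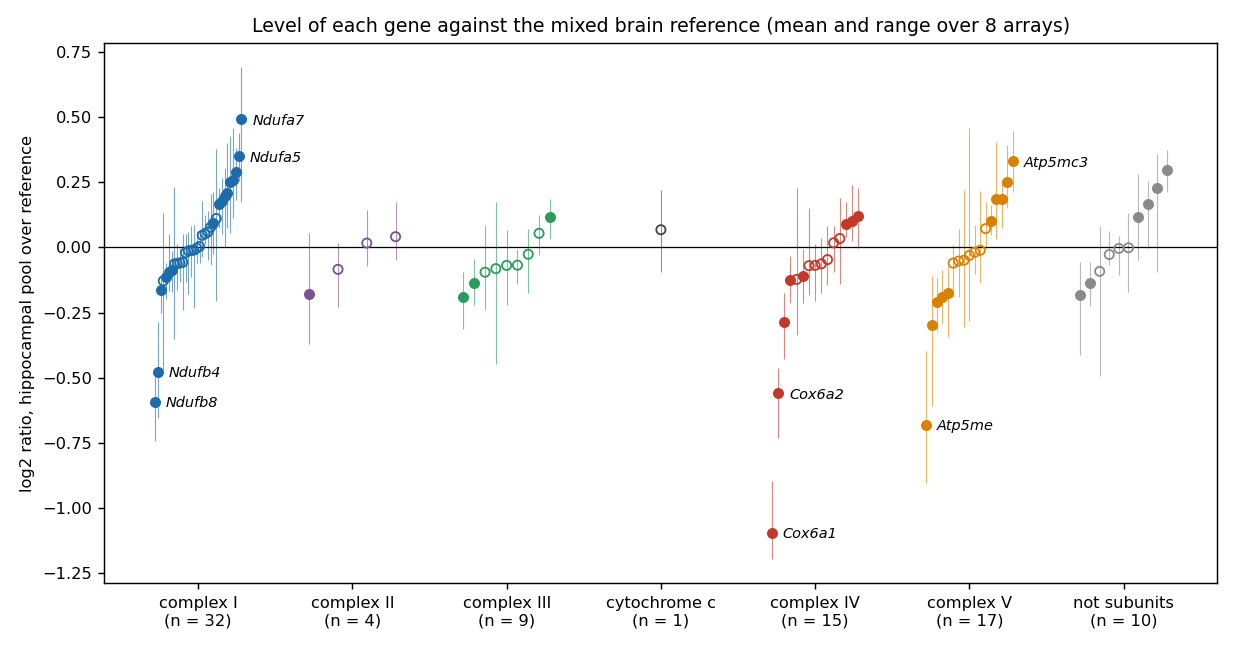
Level of each of the 88 genes by complex, as the mean log2 ratio of pool over reference (vertical axis), with bars from the lowest to the highest of the 8 arrays. Filled points passed the limma test against 0 and open points did not. Cox6a1 is the lowest, at -1.09, and Ndufa7 the highest, at 0.49.

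The lowest level was that of Cox6a1, the common isoform of complex IV subunit 6a in brain. Its ratios were -0.90, -1.17, -1.11 and -1.13 in ICSS pools 1 to 4 and -1.11, -1.19, -1.06 and -1.07 in Sham pools 1 to 4. The reference signal was 2.13-fold the pool signal, with a level of -1.09 (limma adjusted p = 4.76e-09), from a single feature. Its isoform Cox6a2, known from heart and skeletal muscle and, in the mouse brain, from parvalbumin interneurons, had ICSS ratios of -0.57, -0.56, -0.52 and -0.73 and Sham ratios of -0.53, -0.61, -0.49 and -0.46. The level was -0.56 (limma adjusted p = 3.79e-07), and its 3 features gave levels of -0.73 to -0.37. Of 10 measured interneuron markers 9 stood below the reference as well, with Pvalb at -0.48, Syt2 at -1.27 and Kcnc1 at -0.54, and the list's mean ratio ranged from -0.84 to -0.64 in ICSS pools and from -0.95 to -0.46 in Sham pools. Their part in the Cox6a2 level was not tested. Cox4i2 stood at -0.29 (limma adjusted p = 1.30e-05), beside 5 of 11 endothelial and pericyte markers below the reference, namely Rgs5 at -0.41, Kcnj8 at -0.32, Vtn at -0.43, Slco1a4 at -0.16 and Cldn5 at -0.14. Of the rest of that list Flt1 stood above the reference at 0.091, and 5 did not pass, among them Pdgfrb at 0.12 and Notch3 at 0.096. The part of this list was not tested either. Of the other isoforms, Cox6b2, Cox8b and Cox8c had levels of 0.034, -0.12 and -0.069, and none passed. In complex IV 3 genes stood above the reference and 5 below, with Ndufa4 at 0.12 and Cox5a at 0.10 the highest. The 4 features of Ndufa4 gave levels from -0.17 to 0.33.

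In complex I 10 genes stood above the reference and 6 below, none of them a core subunit. The core subunits ranged from -0.13 for Ndufv1 to 0.046 for Ndufv2. The highest levels of all 88 genes were those of the accessory subunits Ndufa7, at 0.49 (limma adjusted p = 1.12e-04), and Ndufa5, at 0.35 (limma adjusted p = 3.28e-06). Ndufa7 had ratios of 0.69, 0.32, 0.66 and 0.41 in ICSS and 0.17, 0.64, 0.66 and 0.37 in Sham pools, so the pools varied within each group and all lay above 0. The lowest were the membrane-arm subunits Ndufb8, at -0.59 (limma adjusted p = 3.51e-07), and Ndufb4, at -0.48 (limma adjusted p = 3.48e-06). Ndufb8 ranged from -0.74 to -0.48 over the 8 arrays and Ndufb4 from -0.65 to -0.29, so their ranges overlapped. Subunits of the same membrane arm, such as Ndufb6 at 0.29 and Ndufb2 at 0.26, stood above the reference.

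Complex V had 5 genes above the reference and 5 below. Atp5me had the second most negative level of all 88 genes, at -0.68 (limma adjusted p = 6.07e-07), with ratios from -0.90 to -0.40 over the 8 arrays. Within complex V the next lowest was Atp5f1e, the epsilon subunit, at -0.30. The c-ring gene Atp5mc3 had the highest level of the complex, at 0.33 (limma adjusted p = 1.33e-05), with 3 features between 0.24 and 0.40, and the stalk subunit Atp5pd stood at 0.25. The 3 c-ring genes encode the same mature protein, yet Atp5mc1 and Atp5mc2 had levels of 0.10 and -0.019. Alpha and beta, at -0.049 and -0.031, did not pass. In complex III Uqcrb, which takes part in ubiquinone binding, stood above the reference at 0.12, and Uqcrc2 and Uqcr11 below it at -0.19 and -0.14. In complex II 1 gene passed, Sdhb at -0.18 (limma adjusted p = 0.015). Cycs stood at 0.067 (limma adjusted p = 0.0833). Of the assembly factors Ndufaf3, Ndufaf6, Ndufaf4 and Ndufaf1 stood above the reference, at 0.29, 0.23, 0.17 and 0.12, and Ndufaf5 and Ndufaf7 below it, at -0.14 and -0.18.

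Features of the same gene did not always show the same sign. Of the 38 genes with more than 1 feature, the differences of the features differed in sign in 19 and the levels in 24, although no gene's feature levels spanned more than 0.5. The deposited values are ratios without intensities, so it is not known which features were near background.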

How the data were processed

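Per the labels' protocols, RNA (500 ng a sample) was amplified from oligo-dT primers and labelled. The deposited values are log ratios of pool over reference for 45220 features on 8 arrays, taken as log2 because the sources used here do not give the base. The submitters' processing notes name limma. Background correction and within-array normalization were not given in these sources. All 8 arrays have the same median absolute value.

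Of the features, 25353 have 1 platform symbol, 48 several and 19819 none. Symbols of 25306 features were updated through Entrez IDs to RefSeq (GRCr8). Features of a gene were averaged, and 14871 genes and 19867 unnamed features made 34738 units. limma 3.58.1 (R 4.3.3, lmFit and eBayes) was fitted to all units without a block, with Benjamini-Hochberg adjustment over all of them and a threshold of 0.05. It was tested on simulated data. The precision is limited by 8 arrays. Replicate numbers were not used as pairs, since same-numbered pools deviated together with correlations of only -0.053 to 0.058.

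The genes named are, per complex, the 3 of smallest p, the 2 highest and 2 lowest levels and 2 lists of core subunits and tissue isoforms, and in each other list the 2 of smallest p. Others were named after their values were seen. The members and lists were chosen with earlier results of these data known. The 14 alternatives were centring, equal spread and quantile normalization of arrays, a replicate block, array weights, robust moderation, leaving out each array, the median over features, each feature as a unit, named genes only, subunits only, no tissue isoforms, Sham arrays only and ICSS arrays only. Equal spread could not change a value, since all arrays already have the same median absolute value. Subunits only and no tissue isoforms drop genes from the main fit, so they could not add a call. Sham arrays only and ICSS arrays only change the level and not the comparison of ICSS with Sham. The closing section gives the results that the alternatives moved.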

Additional observations from a re-analysis of the deposited data

Results flagged for a closer look

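In 4 of 96 groups of 4 pools one pool lay far from the other 3 of its group, by Dixon's test. Chance gives about 1 such group in 20. For Ndufb11, Sham pool 3 stood above the other Sham pools at 0.23. For Ndufb4, Sham pool 4 stood below the others at -0.65. For Ndufaf4, Sham pool 4 stood below the others at -0.0018. For Ndufaf6, ICSS pool 4 stood below the other ICSS pools at -0.096.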

How the results depend on the processing

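None of the 88 genes passed the test between ICSS and Sham under any alternative, and the smallest adjusted p reached was 0.135 (Ndufaf1, difference 0.22, limma array weights). Equal spread, subunits only and no tissue isoforms could not have added a call. Sham arrays only and ICSS arrays only concern the level and not this comparison. None of these alternatives lends the result weight. Genes at an unadjusted p under 0.05 numbered 5 to 11 when 1 array was left out, with 5 without ICSS pool 2 and 6 without Sham pool 4. The share of all units in each of those fits is not given here. The replicate numbers share only a number, and with the replicate block 0 of the 88 genes passed, as without it, while over all units 0 rose and 0 fell. Over all units, calls were 9 higher and 7 lower as reported, 25 higher with array weights, 15 higher with robust moderation, 45 higher with each feature as its own unit and 3 lower over named genes only. Leaving out 1 array gave 0 to 121 higher and 0 to 32 lower, with both highest counts without ICSS pool 1 and both at 0 without ICSS pool 2 or 3.

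Genes above the reference numbered 13 on Sham arrays only, where the level rests on fewer arrays. With each feature as its own unit 44 of the 144 features were above and 34 below. The shares over all units or features under these settings are not given here, so these counts have no background beside them. With each feature as its own unit the median level was 0.0048 for all members, 0.026 for complex I, -0.011 for complex III and 0.042 for complex V. The median difference was then 0.032 for complex I and 0.014 for complex II. Centring the arrays gave a median level of -0.0011 for all members and 0.019 for complex I. Complex I stood at 0.020 on Sham arrays and 0.016 on ICSS arrays, and at -0.0024 to 0.013 when 1 array was left out, with a median difference of -0.0050 to 0.025. Quantile normalization gave complex IV a median difference of -0.00076.

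Some signs turned, and not only for values near 0. On ICSS arrays only, the levels of Cyc1, Cox6b2 and Ndufs6-ps1 were 0.038, -0.0080 and 0.068. On Sham arrays only, those of Cycs, Atp5f1a, Atp5f1b and Ndufs1 were -0.0075, 0.073, 0.10 and 0.019. The level of Ndufs6-ps1 was 0.017 after centring and 0.0016 with array weights. The difference of Atp5mc3 was -0.0012 after centring and -0.0011 after quantile normalization, that of Cox8c -0.0023 and -0.0035, and that of Cox6a1 -0.0023 after quantile normalization. With 1 array left out, differences ranged from -0.025 to 0.053 for Atp5mc3, -0.029 to 0.062 for Cox6a1, -0.0083 to 0.18 for Cox8b, -0.033 to 0.036 for Cox8c, -0.037 to 0.12 for Ndufa7, -0.13 to 0.024 for Ndufaf6, -0.061 to 0.00052 for Sdha and -0.054 to 0.013 for Sdhd. Levels ranged from -0.091 to 0.0092 for Atp5f1b, -0.016 to 0.015 for Ndufs6-ps1 and -0.0055 to 0.032 for Sdhd. The cause of these changes was not tested. Over the alternatives of named genes, 655 differences and 704 levels kept direction and side of the threshold, and 23 levels lost and 13 gained a call. The counts kept include equal spread, which could not change a value.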
